A study of Mus musculus with 12 samples.

Results

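The enzymes that build, lengthen and desaturate fatty acids were followed in mouse liver through 10 genes: Acly, Acaca, Acacb, Fasn, Scd1, Elovl3, Elovl5, Elovl6, Fads1 and Fads2. They were taken as a named set, each by the brightest probeset that the array annotation gives to that gene alone, and all 10 were among the 11899 genes tested. RNA came from livers of male C57BL/6 mice after 7 weeks of intervention, 1 array per mouse. In 6 mice low-dose penicillin was given in the drinking water after weaning, and 6 control mice received no antibiotic. All mice had food and water freely and a cycle of 12 h light and 12 h dark. The sources used here do not give the dose, the age, the cages or the hour of collection, so mice that shared a cage cannot be told from independent ones. Values are log2 of the deposited probeset intensities. A value of 1 probeset says nothing about its level against another probeset.

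Fatty acid synthesis starts in the cytosol, where Acly splits citrate into acetyl-CoA and the acetyl-CoA carboxylases, encoded by Acaca and Acacb, turn it into malonyl-CoA. Fasn condenses these units into palmitate. Elongases of the Elovl family add carbons to fatty acids, Scd1 makes monounsaturated fatty acids from saturated ones, and Fads1 and Fads2 desaturate polyunsaturated ones. In liver the pathway is known to respond to feeding, to insulin through SREBP-1c, to carbohydrate through ChREBP and to the liver X receptors.

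No enzyme of the set passed the test between penicillin and control livers. In limma's fit over all genes with Benjamini-Hochberg adjustment at a threshold of 0.05, 0 of the 10 genes passed, and the adjusted p ran from 0.628 to 0.976. Over all genes 0 passed as well (0%), with 950 genes, or 7.98%, at an unadjusted p under 0.05 (4.33% higher and 3.66% lower in penicillin livers). Of the 10 enzymes, 0 were among these. A fit with no prior on the variance called 0 genes too, with 896 at an unadjusted p under 0.05. Of the 10, 7 were higher and 3 lower in penicillin livers, beside 52.8% higher over all genes, with a median difference of 0.06 on the log2 scale, against 0.01 over all genes. All 10 intervals of the difference included 0, and the groups overlapped for all 10, where the groups were apart for 0.412% of all genes. Without penicillin 2 the number higher was 5, and without control 2, penicillin 1 or penicillin 6 it was 9.

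**Figure D1:**
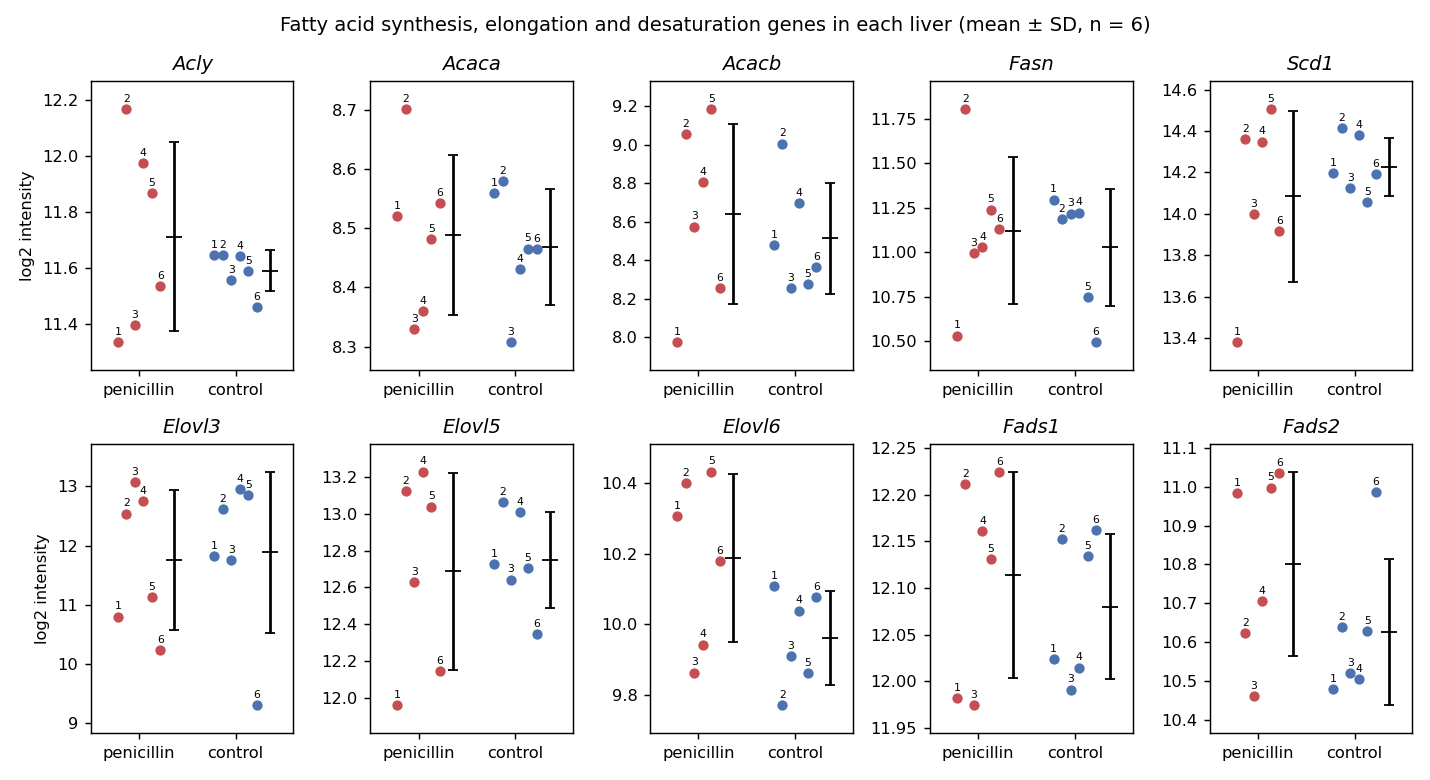
Log2 intensity of each of the 10 genes in the 6 penicillin and the 6 control livers, numbered by mouse, each gene on its own scale; the black mark and bar give the mean and SD (n = 6). The groups overlap in every panel, and the 4 lowest Elovl3 values, 9.31 to 11.14, belong to 3 penicillin livers and control 6.

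Whole liver was measured, so fewer cells of a type and less RNA per cell cannot be told apart. Of 8 hepatocyte markers listed, 7 were measured, 2 higher and 5 lower with penicillin, with differences from -0.24 to 0.03 and a score difference of -0.043 (exact permutation p = 0.281, two-sided). Of 8 adipocyte markers, 2 passed the filter on dim probesets, the resistin gene Retn and the lipase gene Lipe. The defining adipocyte gene Adipoq, at 3.12 with penicillin and 2.99 in controls, lay below the filter of 4.73. A score is here the mean log2 of a list in each array, set to 0 at the control mean. The immediate early score ran from -1.68 to -1.32 in penicillin livers and from -1.52 to 1.42 in controls, a difference of -1.48 (exact permutation p = 0.0108, two-sided, adjusted p = 0.0722 over 20 scores). Scores of 4 of 6 cholangiocyte markers listed (difference -0.35) and of 2 of 6 neutrophil markers listed (difference -1.79) also differed, each at an adjusted exact p of 0.0433. The 2 neutrophil markers measured were S100a8 and S100a9. Below the filter lay the neutrophil genes Elane (4.02 with penicillin, 4.12 in controls) and Mpo (4.45 and 4.47), and the cholangiocyte gene Cftr (3.11 and 3.06). Clock genes varied within both groups: the mean of evening genes minus that of morning genes ran from -1.48 to 2.42 with penicillin and from -1.84 to 2.15 in controls (difference 0.72, exact permutation p = 0.463).

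At the entry to the pathway, Acly, which supplies cytosolic acetyl-CoA, had a lowest, median and highest value of 11.34, 11.70 and 12.17 in penicillin livers, against 11.46, 11.62 and 11.65 in control livers. The control livers lay close together, and penicillin livers lay on both sides of them. The difference was 0.12 (SE 0.13, 95% interval -0.16 to 0.40, limma adjusted p = 0.869). The name of its probeset says that some probes may match further transcripts, and a second Acly probeset of nearly the same brightness gave 0.11. Without penicillin 2 the difference was 0.03.

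The carboxylases make the malonyl-CoA from which chains are built. Acaca, the cytosolic form, stood at 8.33, 8.50 and 8.70 (lowest, median, highest) with penicillin and at 8.31, 8.47 and 8.58 in controls, a difference of 0.02 (SE 0.07, 95% interval -0.13 to 0.17). Acacb encodes the form at the mitochondrial outer membrane, whose malonyl-CoA restrains the entry of fatty acids into mitochondria. It stood at 7.97, 8.69 and 9.19 with penicillin and at 8.26, 8.42 and 9.01 in controls, a difference of 0.13 (SE 0.20, 95% interval -0.31 to 0.56), which was 0.019 without penicillin 5 and 0.26 without penicillin 1. Both the lowest and the highest Acacb value came from penicillin livers, penicillin 1 and penicillin 5.

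Fasn, the fatty acid synthase, stood at 10.53, 11.08 and 11.81 (lowest, median, highest) with penicillin and at 10.49, 11.20 and 11.30 in controls. Penicillin 2 was the highest of all arrays by a wide margin, while only 2 penicillin livers exceeded the control median. The mean difference was 0.09 (SE 0.19, 95% interval -0.32 to 0.51, limma adjusted p = 0.938), and it was -0.043 without penicillin 2 and -0.013 without control 6.

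Scd1, the main stearoyl-CoA desaturase of mouse liver, stood at 13.38, 14.17 and 14.51 (lowest, median, highest) with penicillin and at 14.06, 14.20 and 14.41 in controls. Penicillin 1, penicillin 6 and penicillin 3 were below every control liver. The difference was -0.14 (SE 0.16, 95% interval -0.49 to 0.21, limma adjusted p = 0.876), and -0.0012 without penicillin 1. A second, dimmer Scd1 probeset gave a difference of -0.21 and followed the same order closely (Pearson r = 0.96 across the 12 arrays, as a description).

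Among the elongases the largest difference was that of Elovl6, which lengthens palmitate to stearate. Its lowest, median and highest values were 9.86, 10.24 and 10.43 with penicillin and 9.77, 9.97 and 10.11 in controls. The 4 highest values were all from penicillin livers, and penicillin 3 and penicillin 4 lay within the control range. Elovl6 was 1.17-fold higher (log2 difference 0.23, SE 0.10, 95% interval -0.0010 to 0.45, limma adjusted p = 0.628), the smallest p of the 10 genes and at rank 962 among all genes. A second Elovl6 probeset gave 0.24, while the dimmest measured one gave -0.24 and did not follow the brightest across arrays (Pearson r = -0.045). With the mean of all its probesets the difference was 0.08. In a limma fit over probesets rather than genes, the unadjusted p was 0.0471 for the brightest probeset, 0.0349 for the second and 0.218 for the dimmest. The fit over genes gave an unadjusted p of 0.0509 for the brightest. With the second brightest probeset of each gene, the limma adjusted p of Elovl6 was 0.738. Among all probesets of the 10 genes, the smallest unadjusted p of the fit over probesets was 0.0013, of an Acly probeset below the filter on dim probesets.

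Elovl5, which acts mainly on polyunsaturated fatty acids, stood at 11.96, 12.83 and 13.23 (lowest, median, highest) with penicillin and at 12.35, 12.72 and 13.07 in controls. Penicillin livers reached beyond the control range at both ends. The difference was -0.06 (SE 0.22, 95% interval -0.53 to 0.41), and without penicillin 1 it was 0.08. Elovl3, an elongase of saturated and monounsaturated chains that is known for a daily rhythm and a male bias in mouse liver, had the widest range of the set. It stood at 10.23, 11.84 and 13.07 with penicillin and at 9.31, 12.22 and 12.95 in controls, a span of 7.17-fold among penicillin livers and of 12.5-fold among control livers. The difference was -0.13 (SE 0.65, 95% interval -1.53 to 1.26), so at this spread a change of 2-fold in either direction was not detectable. Without control 6 it was -0.65, and it was above 0 without control 2, control 4, control 5, penicillin 1 or penicillin 6, reaching 0.17.

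The polyunsaturated desaturases lie next to each other in the genome and act in turn, Fads2 before Fads1. Fads2 stood at 10.46, 10.84 and 11.03 (lowest, median, highest) with penicillin and at 10.48, 10.57 and 10.99 in controls. It took 2 levels: penicillin 1, penicillin 5, penicillin 6 and control 6 were at 10.98 to 11.03, and the other 8 arrays at 10.46 to 10.71. The difference was 0.17 (SE 0.12, 95% interval -0.07 to 0.42, limma adjusted p = 0.752), with the clock score as a covariate it was 0.11, and without the 4 arrays at the upper level it was 0.04. Fads1 stood at 11.97, 12.15 and 12.22 with penicillin and at 11.99, 12.08 and 12.16 in controls. The Fads1 difference was 0.03 (SE 0.06, 95% interval -0.10 to 0.17), with the smallest standard error of the set. A second, much dimmer Fads1 probeset gave 0.11 (SE 0.13) and did not follow the brightest across arrays (Pearson r = -0.081).

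**Figure D2:**
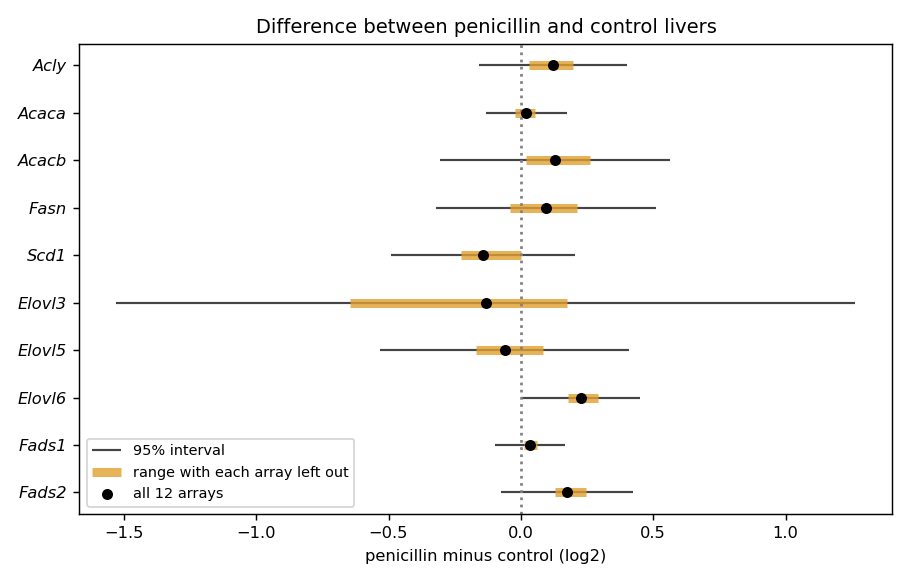
Penicillin minus control on the log2 scale for each gene: the point is the difference over 12 arrays, the thin line its 95% interval and the thick bar the range when each array is left out in turn. Elovl6 stays above 0 in every omission, at 0.18 to 0.29, while Elovl3 runs from -0.65 to 0.17.

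Within families, enzymes of related function were compared in the same arrays to ask whether they differed in their response. None of the 5 pairs passed an exact permutation test of the difference over all assignments of arrays to groups (adjusted p from 0.823 to 0.916). Elovl6 minus Elovl5 differed between the groups by 0.29 (95% interval -0.34 to 0.91, exact p = 0.329), and Fads2 minus Fads1 by 0.14 (95% interval -0.11 to 0.39, exact p = 0.264). Acacb minus Acaca differed by 0.11 (95% interval -0.38 to 0.59), Elovl3 minus Elovl6 by -0.36 (95% interval -2.13 to 1.42) and Elovl3 minus Elovl5 by -0.07 (95% interval -1.41 to 1.26). Leaving out single arrays moved Elovl3 minus Elovl6 to -0.90 (without control 6) or -0.054 (without penicillin 6), and Elovl6 minus Elovl5 to 0.12 (without penicillin 1) or 0.44 (without penicillin 4). With these intervals a missed threshold does not show that the enzymes of a pair responded alike.

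The scatter among mice was compared as well as the mean. The mean absolute deviation from the own group's median was larger with penicillin than in controls for all 10 genes, where this held for 44.9% of all genes, and the SD was larger for 9, all but Elovl3. The genes are not independent of each other, since several followed one another across mice. The smallest p was that of Acly, with a deviation of 0.290 in penicillin livers and 0.0548 in control livers, and an SD 4.60 times that of controls (exact permutation p = 0.00216, two-sided, the smallest the design can give, adjusted p = 0.307 over all genes). The SD ratio was 2.50 in the second Acly probeset and 1.26 in a dimmer one. Scd1 followed, with deviations of 0.320 in penicillin livers and 0.102 in control livers (exact permutation p = 0.0238, adjusted p = 0.770), a difference of 0.217, or 0.0877 without penicillin 1. For Elovl5 the deviations were 0.444 with penicillin and 0.185 in controls (exact permutation p = 0.0801), the largest difference of the set at 0.259, or 0.132 without penicillin 1. None of the 10 genes passed (0), nor did any of all genes (0%), and 5.4% of all genes had an unadjusted exact p under 0.05, as 2 of the 10 did. In simulated data with an SD 4 times larger in 200 genes, the adjusted test recovered 0% and an unadjusted p under 0.05 recovered 47.5%, so the missed adjusted threshold says little here.

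The number of genes with the wider scatter in penicillin livers rested in part on a few mice. It was 7 of 10 without penicillin 1, 8 without penicillin 3 and 10 without any single control. Without control 6, penicillin 1, penicillin 5 and penicillin 6 together it was also 7, with Acacb, Scd1 and Elovl3 the exceptions. On residuals after the clock score it was 8, with Elovl3 and Fads2 the exceptions, and after the immediate early score it was 10. For Acly the difference in deviation, 0.235, ran from 0.167 to 0.261 over the omissions of single arrays, and it was 0.140 with the mean of all its probesets (exact permutation adjusted p = 1).

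**Figure D3:**
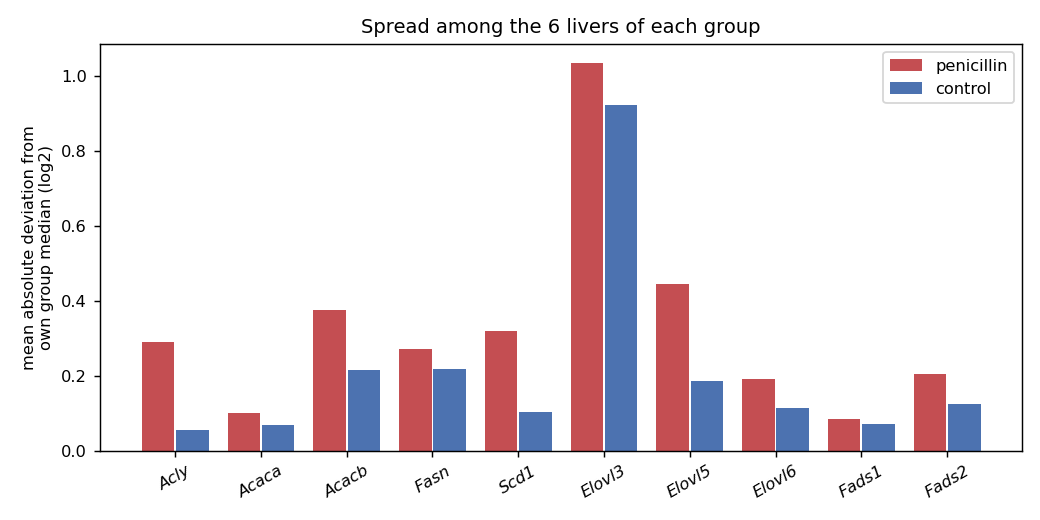
Mean absolute deviation of log2 intensity from the own group's median for each gene, penicillin beside control (6 livers each). All 10 penicillin bars are the taller, by the largest difference for Elovl5 (0.444 with penicillin, 0.185 in controls) and the largest ratio for Acly (0.290 with penicillin, 0.0548 in controls), and Elovl3 has the tallest bars in both groups.

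Single livers stood out across several enzymes. Penicillin 1 was the lowest of the 12 arrays for 4 genes, Acly, Acacb, Scd1 and Elovl5, at -0.26, -0.54, -0.85 and -0.79 against the control means. Penicillin 2 was the highest for 3, Acly, Acaca and Fasn, at 0.58, 0.23 and 0.78. Penicillin 5 was the highest for Acacb, Scd1 and Elovl6, at 0.67, 0.28 and 0.47. No control liver was the highest for any gene, and control 6 was the lowest for Fasn and Elovl3. Penicillin 1 also had the lowest score of cholangiocyte markers (-0.71), of stellate cell markers (-0.55) and of endothelial markers (-0.38), and the highest of hepatocyte markers (0.08). The part of these in its low enzyme levels was not tested.

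**Figure D4:**
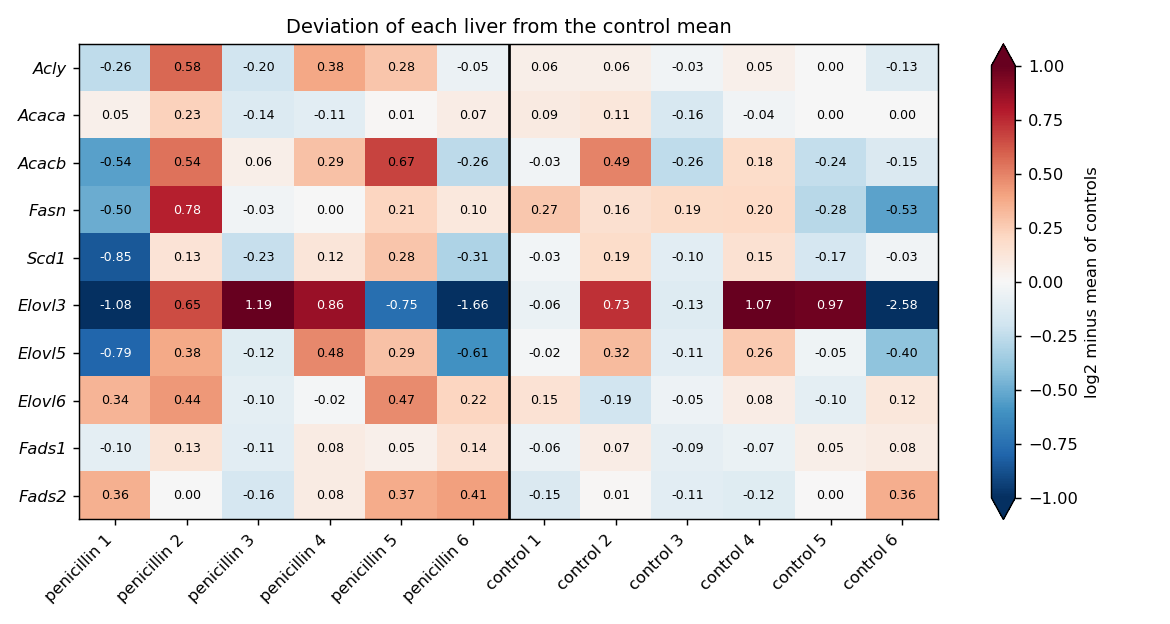
Log2 intensity of each gene (rows) in each liver (columns, penicillin left of the line, control right of it) minus the mean of the 6 controls, with colours saturating at 1 in either direction. Penicillin 1 is low for Acly, Acacb, Fasn, Scd1, Elovl5 and, farthest at -1.08, Elovl3, and penicillin 2 is above the control mean for 9 of 10 genes.

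Several enzymes varied together from mouse to mouse. Deviations from the group means were correlated over the 12 arrays for the 45 pairs, with permutation within groups and adjustment over the pairs. The median Pearson r was 0.37, and 14 pairs, or 31.1%, exceeded 0.5, where 9.73% of pairs among 1190 genes spread over the table did. Those genes were not matched to the enzymes in brightness or scatter, so the shares are a description. By Pearson r, Acacb and Scd1 followed each other most closely (r = 0.93, permutation p = 1e-05, the smallest that the resampling can give, adjusted p = 0.00045). Spearman's rho was 0.937 (permutation p = 5e-05), and r was 0.91 without the 2 arrays farthest out in Acacb. By rho, Acly with Elovl5 was closer, at 0.944 (permutation p = 0.00081). Acacb with Elovl5 gave r = 0.89 (permutation p = 0.00093, adjusted p = 0.0140, rho = 0.87, permutation p = 0.00142), or 0.84 without the 2 farthest arrays. Scd1 with Elovl5 gave r = 0.88 (permutation p = 0.00076, adjusted p = 0.0140, rho = 0.88, permutation p = 0.0036), or 0.87. Acly with Fasn gave r = 0.73 (permutation p = 0.00298, adjusted p = 0.0335, rho = 0.63, permutation p = 0.0149), with 0.81 among the 6 penicillin livers and 0.81 among the 6 controls. It was 0.34 without penicillin 1 and penicillin 2. Acly had a higher r with Elovl5 (0.84), Scd1 (0.80) and Acacb (0.75), but these missed the threshold (permutation adjusted p = 0.0887, 0.135 and 0.132). Of the 45 pairs 5 passed, and the fifth was Elovl3 with Fads2, in opposition (adjusted p = 0.0460). Fads2 took 2 levels among the arrays, so r is given only within the 8 arrays at the lower level, where it was 0.15, and the opposition rested on the other 4 arrays. Within groups of 6, r for Acacb and Scd1 was 0.96 with penicillin and 0.94 in controls. Acacb, Scd1 and Elovl5 also followed scores of cell markers, given as a description. With the endothelial score r of group-centred values was 0.66 for Acacb, 0.63 for Scd1 and 0.54 for Elovl5. With the hepatocyte score it was -0.60, -0.74 and -0.40. In the 6 controls alone the hepatocyte values were -0.31, -0.57 and -0.09, against -0.68, -0.75 and -0.46 in the 6 penicillin livers. Fads1 had a higher r with the endothelial score, at 0.71. The part of cell content in the shared variation was not tested.

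Promoter windows are shown for the enzymes of the pairs that passed with a positive r. The RefSeq-based table held 7 of the 10 genes, and 4 of these enzymes. Acly and Fasn passed only with each other. Each window runs from 250 bases before to 50 bases after the annotated start, 5′ to 3′ on the gene's strand, in build GRCm38.p6. Capitals mark matches on either strand to CACGTG (the E-box bound by ChREBP, USF and clock factors), CCAAT (bound by NF-Y), TCACNCCAC (a form of the sterol regulatory element) and GGGCGG (bound by Sp1). Acly lies at chr11:100527951-100528250 on the minus strand, Acacb at chr5:114165268-114165567 on the plus strand, Fasn at chr11:120824498-120824797 on the minus strand and Elovl5 at chr9:77917115-77917414 on the plus strand.
Acly: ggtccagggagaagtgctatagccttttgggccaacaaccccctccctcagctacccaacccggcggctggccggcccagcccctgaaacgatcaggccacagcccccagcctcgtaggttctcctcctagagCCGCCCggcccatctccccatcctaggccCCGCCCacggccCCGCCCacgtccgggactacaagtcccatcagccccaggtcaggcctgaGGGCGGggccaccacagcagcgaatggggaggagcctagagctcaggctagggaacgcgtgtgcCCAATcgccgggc
Acacb: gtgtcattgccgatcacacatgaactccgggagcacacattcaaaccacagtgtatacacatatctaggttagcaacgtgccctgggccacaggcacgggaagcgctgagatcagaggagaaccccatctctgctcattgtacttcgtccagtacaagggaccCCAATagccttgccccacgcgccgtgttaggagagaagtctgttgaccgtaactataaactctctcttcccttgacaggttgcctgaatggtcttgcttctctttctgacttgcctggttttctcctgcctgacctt
Fasn: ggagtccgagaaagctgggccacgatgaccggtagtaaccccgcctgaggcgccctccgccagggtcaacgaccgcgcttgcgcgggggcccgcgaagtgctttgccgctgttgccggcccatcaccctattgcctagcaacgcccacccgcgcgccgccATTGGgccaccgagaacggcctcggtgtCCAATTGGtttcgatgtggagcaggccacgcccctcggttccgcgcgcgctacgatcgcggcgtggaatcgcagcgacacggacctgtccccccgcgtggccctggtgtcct
Elovl5: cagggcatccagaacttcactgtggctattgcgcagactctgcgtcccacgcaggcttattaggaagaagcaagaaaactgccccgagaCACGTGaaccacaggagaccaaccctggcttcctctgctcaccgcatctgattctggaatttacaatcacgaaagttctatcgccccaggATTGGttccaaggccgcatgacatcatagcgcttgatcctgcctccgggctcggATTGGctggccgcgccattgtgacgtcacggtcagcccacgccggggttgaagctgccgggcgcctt

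CCAAT was found in these 4 of the 7 windows in the table and in none of the others, beside 37.4% of all 32851 windows. The 4 were picked by correlations in these same data, so the count is a description. Fasn had 3 matches, of which a pair on opposite strands overlapped. CACGTG was found in Elovl5 alone of the 7, at position -161 from the start, beside 7.15% of all windows. GGGCGG was found in Acly and Fads2, beside 35.7% of all windows, with 4 matches in Acly. TCACNCCAC was found in 0 of the 7 and in 1.24% of all windows. A match is a run of letters and not a shown binding site.

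Among the enzymes for which r is given, Elovl3 and Elovl5 followed the clock genes of the same liver most closely. Fads2, by its brightest probeset, was highest in the 4 livers with the highest clock score. As a description over the 12 arrays, r of group-centred values with the clock score was -0.90 for Elovl3 and -0.73 for Elovl5. For the other enzymes it lay between -0.50 and 0.54, apart from Fads2, for which no r is given because of its 2 levels. Elovl5 ran from 11.96 to 13.04 in the 4 livers with the highest score and from 12.63 to 13.23 in the other 8, so these overlapped. Elovl3 was lowest in control 6 (9.31), penicillin 6 (10.23), penicillin 1 (10.80) and penicillin 5 (11.14), where the clock score stood at 2.15, 2.30, 2.42 and 2.12. It was next lowest in control 3 (11.76) and control 1 (11.82), with scores of 1.04 and 0.90. The remaining 6 arrays, 3 of each group, had Elovl3 at 12.54 to 13.07 and scores from -1.84 to -0.50. Of 11898 other genes, the most opposite to Elovl3 by Pearson r of group-centred values over the 12 arrays was the clock gene Per3 (r = -0.97), and the most alike were Tubb2a, Dpp9 and Gldc (r = 0.98 for each). Without the 4 arrays of highest clock score r was -0.95 for Per3, 0.90 for Tubb2a, 0.996 for Dpp9 and 0.79 for Gldc, over 8 arrays. Per3 stood at 7.73 to 7.96 in those 4 arrays and at 4.84 to 6.21 in the other 8. With the clock score as a covariate the Elovl3 difference was 0.37 (SE 0.30, limma adjusted p = 0.709). Those most like Fads2 over the 12 arrays were Cry2, a clock repressor, Gab1 and Cobll1, and the most opposite was Lrp5. Within the 8 arrays at the lower Fads2 level r was 0.84 for Cry2, 0.71 for Gab1, 0.68 for Cobll1 and -0.97 for Lrp5. The genes named for Elovl3 and Fads2 were picked over all 12 arrays, which include these 8. Their r within the 8 is thus no separate check.

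The step in Fads2 was seen in the brightest probeset and in a dimmer one that correlated with it (Pearson r = 0.90 over 12 arrays). A probeset of nearly the same brightness did not share it (r = -0.23): there control 6, penicillin 1, penicillin 5 and penicillin 6 lay at 10.33 to 10.53, within the 10.14 to 10.71 of the other arrays. That probeset gave a difference of 0.10 (10.49 ± 0.15 in penicillin livers, 10.39 ± 0.19 in control livers, SD, n = 6 each). The step was thus a feature of some Fads2 probesets and not of all.

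**Figure D5:**
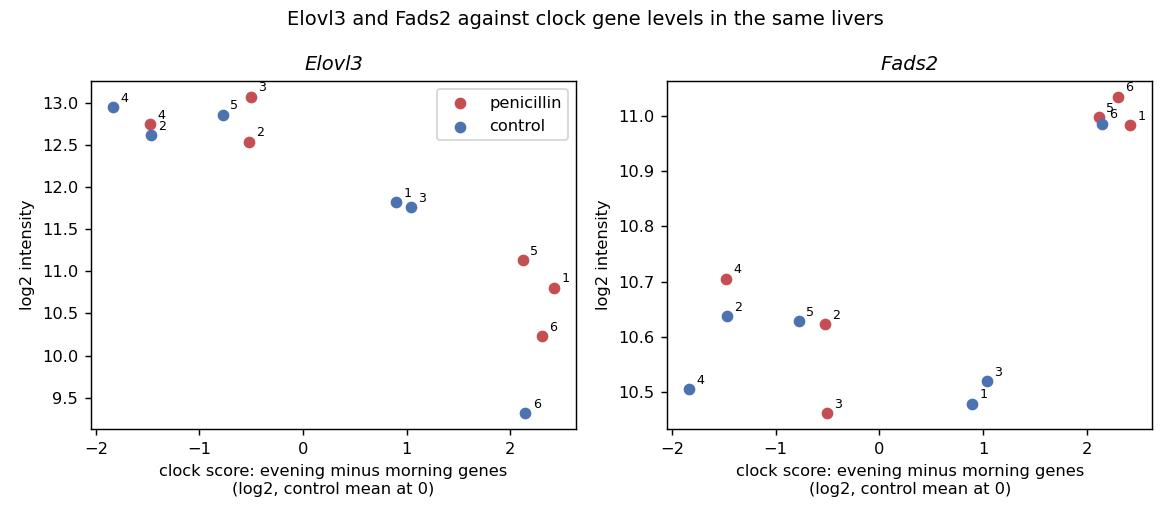
Log2 intensity of Elovl3 (left) and Fads2 (right, brightest probeset) against the clock score of the same liver, the mean of evening genes minus that of morning genes (control mean at 0), for 6 penicillin and 6 control livers numbered by mouse. Elovl3 is lowest and Fads2 highest in penicillin 1, penicillin 5, penicillin 6 and control 6, all at a score above 2.

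Other genes most like the enzymes were, by the same measure, U2surp, Scd1 and the acyltransferase Gpam (r = 0.92) for Acacb, and U2surp, Acacb and the lipid droplet protein Plin3 (r = 0.92) for Scd1. Those of Elovl5 were Acsl5 (r = 0.95), an acyl-CoA synthetase, Anp32a and Hmgxb4. Those of Acly were Pdcd4 (r = 0.95), Bbip1 and Nsmce3, and those of Fasn were Pias1 (r = 0.90), Phrf1 and Adat2. Elovl6 was followed most closely by A330009N23Rik (r = 0.89), Dffb and Rpp14, Acaca by Phf24 (r = 0.87), Pcif1 and Trp53i11, and Fads1 by Ddx60 (r = 0.95), Rap2b and Lgals2. With 12 arrays and this many genes, high values of r arise in number, and no test was made of them.

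Genes that surround the enzymes were also counted, in lists written with earlier results of these data known. Of all of them 0 passed. Of 9 genes that supply carbon, 8 were higher in penicillin livers, with a median difference of 0.09, against 52.8% higher over all genes and a median of 0.01. The citrate carrier Slc25a1 stood at 10.96 to 11.10 with penicillin and 10.84 to 11.04 in controls, a difference of 0.11 (SE 0.05), and the malic enzyme Me1 differed by 0.29 (SE 0.24). Of 7 genes in a list drawn up for NADPH supply, 6 were higher. Me1 is in this list and in that for carbon, and not every gene of the list makes NADPH itself. Idh1, the cytosolic isocitrate dehydrogenase, averaged 13.04 ± 0.07 in penicillin livers and 12.88 ± 0.12 in control livers (SD, n = 6 each, limma adjusted p = 0.584). Taldo1 was higher by 0.08.

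Among regulators and enzymes of glycolytic entry, 12 of 18 were higher, with a median of 0.06. Thrsp, a lipogenic protein responsive to thyroid hormone, stood at 12.69, 13.40 and 13.61 (lowest, median, highest) with penicillin and at 12.05, 12.26 and 13.36 in controls, and Srebf1, which encodes SREBP-1, at 11.02, 11.34 and 11.94 with penicillin and at 10.40, 10.92 and 11.60 in controls. Both overlapped between the groups. Their differences of 0.82 (SE 0.22, limma adjusted p = 0.434) and 0.51 (SE 0.22, limma adjusted p = 0.593) were larger than those of all 10 enzymes. Mlxipl, which encodes ChREBP, differed by 0.14 and Insig1, which holds back SREBP processing, by -0.22.

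A list of other elongases, enzymes of the elongation cycle and acyl-CoA synthetases was split, with 5 of 10 higher. These were 0 of 2 elongases, 4 of 5 enzymes of the cycle and 1 of 3 synthetases, which activate fatty acids and are not part of the cycle. The acyl-CoA synthetase Acsl3 stood at 7.60, 8.32 and 8.71 (lowest, median, highest) with penicillin and at 8.63, 8.70 and 8.83 in controls, a difference of -0.42 (SE 0.16, limma adjusted p = 0.570), with an SD of 0.42 in penicillin livers and 0.07 in controls. The dehydratase Hacd1 differed by 0.16. Of 7 other desaturases and electron donors 5 were higher, led by Fads6 (0.15) and Cyb5b (0.13). Of 10 genes in a list drawn up for the separate mitochondrial synthesis of fatty acids, 9 were higher, with a median of 0.11. Among them were Cbr4 (0.13, SE 0.06) and Lipt1 (0.22, SE 0.10). Not every gene of the list is an enzyme of that synthesis, and Lipt1 encodes a lipoate transferase. Of 9 genes that remove malonyl-CoA or regulate the carboxylases, 5 were higher, with the kinase subunit Prkaa2 at 0.21 and the kinase Stk11 at 0.07.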

How the data were processed

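Liver RNA of 12 mice was measured on Affymetrix arrays after labelling with a kit that copies transcripts from their 3′ ends, per the labels' protocols. The deposited values are probeset intensities on a linear scale, and the submitters' processing notes name RMA as the tool; the sources used here do not give its settings. RMA makes the arrays' distributions alike, so a change shared by most genes is removed. Log2 was taken here, with no further normalization. Probesets with a mean under the median of the 45037 probesets other than controls (4.73) were left out, genes were named by probesets with 1 annotated gene, with symbols updated through a RefSeq table of GRCm38.p6, and the brightest probeset stood for each of 11899 genes. The files hold no detection calls, and the number of arrays limits the precision. Column medians ran from 4.70 to 4.76 in log2, and arrays correlated at 0.980 to 0.997 over genes, so none was taken as a copy.

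Penicillin minus control was fitted with limma 3.58.1 in R 4.3.3 over all 12 arrays, two-sided, with Benjamini-Hochberg adjustment. Spread, family pairs and scores were tested by exact permutation over all assignments of arrays to groups, and correlations by 100000 permutations within groups. On simulated data of 11899 genes, 50 genes were changed at each of several sizes. There limma recovered 50% of genes changed 1.25-fold, 92% of those changed 1.5-fold, 96% of those changed 2-fold and 98% of those changed 4-fold, beside 9 false calls. The simulated noise was independent and normal, and planted changes ease the adjusted threshold, where the data gave 0 calls. The 10 enzymes had a median SE of 0.145, against 0.086 over all genes, and Elovl3 an SE of 0.65. These shares are therefore not the power of the test for the enzymes. The members, lists and tests were chosen with earlier results of these data known. By the rule, the genes named were the 10 members and the 2 of each pathway list with the smallest p. They also included Srebf1, Mlxipl, Thrsp, Me1 and Insig1, and the genes most like each member. The genes most opposite to Elovl3 and Fads2 were named after their values were seen. So were the marker genes Retn, Lipe, Adipoq, S100a8, S100a9, Elane, Mpo and Cftr. Alternatives covered the filter, normalization, log offset, replicate block, weights, variance prior, probeset choice, threshold, omitted arrays and covariates; correlations without the 4 arrays of highest clock score were added after seeing the data.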

Additional observations from a re-analysis of the deposited data

Results flagged for a closer look

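Of 20 groups of 6 values (10 genes in 2 groups), 2 held a value far from the others by Dixon's test, and both came from control 6; chance flags about 1 group in 20. Elovl3 in control 6 stood at 9.31, which is 2.45 below the nearest control. Fads2, by its brightest probeset, stood at 10.99 in control 6, which is 0.35 above the nearest control. In a Fads2 probeset of nearly the same brightness control 6 stood at 10.33, within the 10.14 to 10.67 of the controls. Both flags come from the same liver, so they may not be independent. Control 6 had the highest clock score of the controls, at 2.15, and penicillin livers with a like score had Elovl3 at 10.23 to 11.14 and Fads2 at 10.98 to 11.03. The cause was not tested.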

How the results depend on the processing

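In every alternative run 0 genes and 0 of the 10 members passed the threshold, also at an adjusted p under 0.10. With the second brightest probeset, which 6 members have, 4 of 6 were higher in penicillin livers and 5 of 6 more spread; 334 genes then had an unadjusted p under 0.05, against 950. That number was 534 with the immediate early score as a covariate and 488 when control 1, control 3 and control 5 were left out. Leaving out each array in turn gave 5 to 9 members higher, 7 to 10 more spread and 671 to 1244 such genes. Those omissions ran from -0.021 to 0.053 for Acaca, -0.043 to 0.21 for Fasn, -0.65 to 0.17 for Elovl3 and -0.17 to 0.084 for Elovl5; from -0.049 to 0.15 for the spread of Fasn, -0.14 to 0.59 for that of Elovl3 and -0.0053 to 0.030 for that of Fads1; and from -0.0032 to 0.25 for Acacb minus Acaca and -0.51 to 0.13 for Elovl3 minus Elovl5. The following changed sign, none past a threshold on either side, and the cause was not tested. Without control 1, control 3 and control 5, Acaca was at -0.0028, Acacb at -0.048, Elovl3 at 0.13, the spread of Elovl3 at -0.18, Acacb minus Acaca at -0.045 and Elovl3 minus Elovl5 at 0.25. Without control 6, penicillin 1, penicillin 5 and penicillin 6, Acaca was at -0.0054, Scd1 at 0.0015, Elovl3 at 0.39 and Elovl5 at 0.16. There the spread of Acacb was at -0.074, of Scd1 at -0.0014 and of Elovl3 at -0.27, Elovl3 minus Elovl5 at 0.22, Elovl3 minus Elovl6 at 0.25, Elovl6 minus Elovl5 at -0.034 and Fads2 minus Fads1 at -0.0099. With the immediate early score as a covariate Acaca was at -0.00069 and Acacb at -0.073, and with the clock score Elovl3 was at 0.37 and Elovl5 at 0.073. With the second probeset the spread of Fads2 was at -0.025 and Fads2 minus Fads1 at -0.0065. The spread of Fads1 was at -0.0084 with medians centred and that of Fasn at -0.0010 as deviation from the mean. On residuals after the clock score, chosen after seeing the data, the spread of Elovl3 was at -0.18 and of Fads2 at -0.040.

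The labels do not say whether replicate numbers pair the mice. Same-numbered arrays correlated at -0.26 to 0.39, and 2 of 6 correlated best with their own number, which does not settle it. The fit with the number as a replicate block gave 0 genes past the threshold and 0 members. It gave 1214 genes at an unadjusted p under 0.05, against 950 without the block, with 7 members higher. With the block the SE was 0.37 for Elovl3, 0.13 for Elovl5 and 0.08 for Fads2, against 0.65, 0.22 and 0.12 without it. Elovl6 went the other way, at 0.108 against 0.105.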
